A study of Mus musculus with 6 samples.

Results

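The genes described here are those of the core histones H2A, H2B, H3 and H4 and of the linker histone H1, as measured in mouse testis RNA that came down with the germ cell protein MVH. Their probes were found by symbol: a probe was a member if the platform's gene symbol, or the current symbol it maps to, carried a histone name of the series Hist1h to Hist4h, H1f, H2af, H3f or the newer H2a, H2b, H3c and H4c series. This gave 46 of the 23473 probes on the array, for 36 of its 16390 gene symbols. By the names of their genes, 27 probes belong to replication-dependent histones, 10 to variants and 9 to testis-specific histones. The rule itself used no measured value, although it was set with earlier results of these data known.

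All samples came from testis of the mouse strain labelled C57/BL6, with no age given and no allele or treatment named. The MVH group holds RNA precipitated with an anti-MVH antibody, the IgG group holds RNA precipitated from testis lysate with normal rabbit IgG, and the WCE group, called total RNA below, was taken with no antibody. Per the labels, a lysate was made from a pair of testes. Each of the 3 groups has 2 arrays, and the labels do not say whether these came from separate animals, so a p-value measures only the spread between the arrays, which may be technical. Values are probe intensities of Cy5-labelled amplified RNA, given here after each array was scaled to a median of 30. The number of arrays limits the precision, and because every array was scaled, how much RNA each precipitate held is not known.

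Nucleosomes wrap DNA around core histones, and linker histones bind where the DNA enters and leaves. Replication-dependent histone genes lie in clusters, are transcribed in S phase, and give mRNAs that end in a stem-loop instead of a poly(A) tail, although tailed forms occur in differentiating cells. Variants are in general made throughout the cell cycle from tailed mRNAs, although H2ax gives both a tailed and a stem-loop form. Male germ cells add testis-specific histones during meiosis and in spermatids, before transition proteins and protamines replace most histones. MVH, also called DDX4, is an RNA helicase of germ granules. The labelling kit starts from poly(A) tails, so the intensities show what that priming reached, and how much of the histone mRNA lay outside it was not tested.

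On each array 41 to 46 of the 46 histone probes were listed, the fewest on IgG precipitate 2, which also had the lowest deposited median of all arrays (20.8, against 30 on the others) and the most blank probes (1383, against 508 to 1063). In all, 41 histone probes were listed on all 6 arrays, and 7 lay among the dimmest 25% of the array's probes. Over the 41 probes the log2 difference between the arrays of a group had an SD of 0.43 for MVH, 0.68 for IgG and 0.45 for total RNA. Spermatid markers were bright on every array, and all 10 were listed. Leydig cell markers (7 of 9 on the array) summed to 537 to 571 in the MVH precipitates, 2017 to 3159 in the IgG precipitates and 709 to 1183 in total RNA. The sums of 9 peritubular and vascular markers were 370 to 568 in the MVH, 1488 to 3182 in the IgG and 440 to 534 in the total RNA group. For 9 of 10 spermatogonial markers they were 2911 to 3223, 6486 to 9505 and 3907 to 4172 in the same order, for 9 of 10 spermatocyte markers 10667 to 16753, 3880 to 5004 and 6914 to 8798, and for 9 of 10 Sertoli cell markers 4042 to 4131, 6777 to 8816 and 5454 to 5817. Macrophage and blood markers (5 of 8 on the array) summed to 65.9 to 95.1 on all arrays. The Leydig sum stood for its list, with all 7 genes lower with MVH than with IgG and a median log2 difference of -1.88. Other sums rested on a few bright genes. Acta2 (502 and 295 with MVH, against 3037 and 1388 with IgG) carried the peritubular and vascular sum. The median of that list was -0.33, with 5 of the 7 genes tested lower and 2 higher. Pgk2 (9349 and 14813 with MVH, against 3321 and 2185 with IgG) carried the spermatocyte sum, while the median of that list was -0.09, with Pgk2 and Sycp3 called higher and Tex15 and Dmc1 lower. Clu and Amhr2 carried the Sertoli sum, with a list median of 0.04, and among spermatogonial genes Dmrtb1 was called higher and Nanos3 and Sohlh1 lower. The part these cells' RNA has in the histone differences was not tested. The sums describe the RNA recovered in each group, and cannot tell apart cell numbers, RNA per cell and recovery in the precipitation.

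The mean log2 intensity of the MVH precipitate was below that of the IgG precipitate for 30 of the 41 histone probes tested, and below that of total RNA for 41 of 44. Of the 41 probes listed on all 6 arrays, 19 had both MVH arrays below all 4 IgG and total RNA arrays, against 11.5% of all probes, and 0 had both above all 4, against 11.4% of all probes. The 19 comprised 12 replication-dependent, 5 variant and 2 testis-specific probes. Probes of 1 gene are counted separately, and 7 of the 41 carry the symbol Hist1h4a. With the deposited values, before this scaling, the count was 10, against 6.18% of all probes. All deposited medians but that of IgG array 2 (20.8) were already 30, so the scaling in effect moved that array alone. The test across all probes was sparing: in the MVH against the IgG precipitate limma called 1 histone probe of 41 lower, against 4.15% of all probes tested, and 0 higher, against 3.82%, a share near the background. Before scaling it called 121 of all probes lower and 702 higher, against 895 and 824 after it. No probe of the array was called in either direction when MVH array 2 or either total RNA array was left out, or when only the 4 arrays compared were fitted. At an unadjusted p under 0.05 there were 17 lower and 1 higher. The median log2 difference was -0.41 over the histone probes and 0.07 over all 21574 probes tested.

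**Figure D1:**
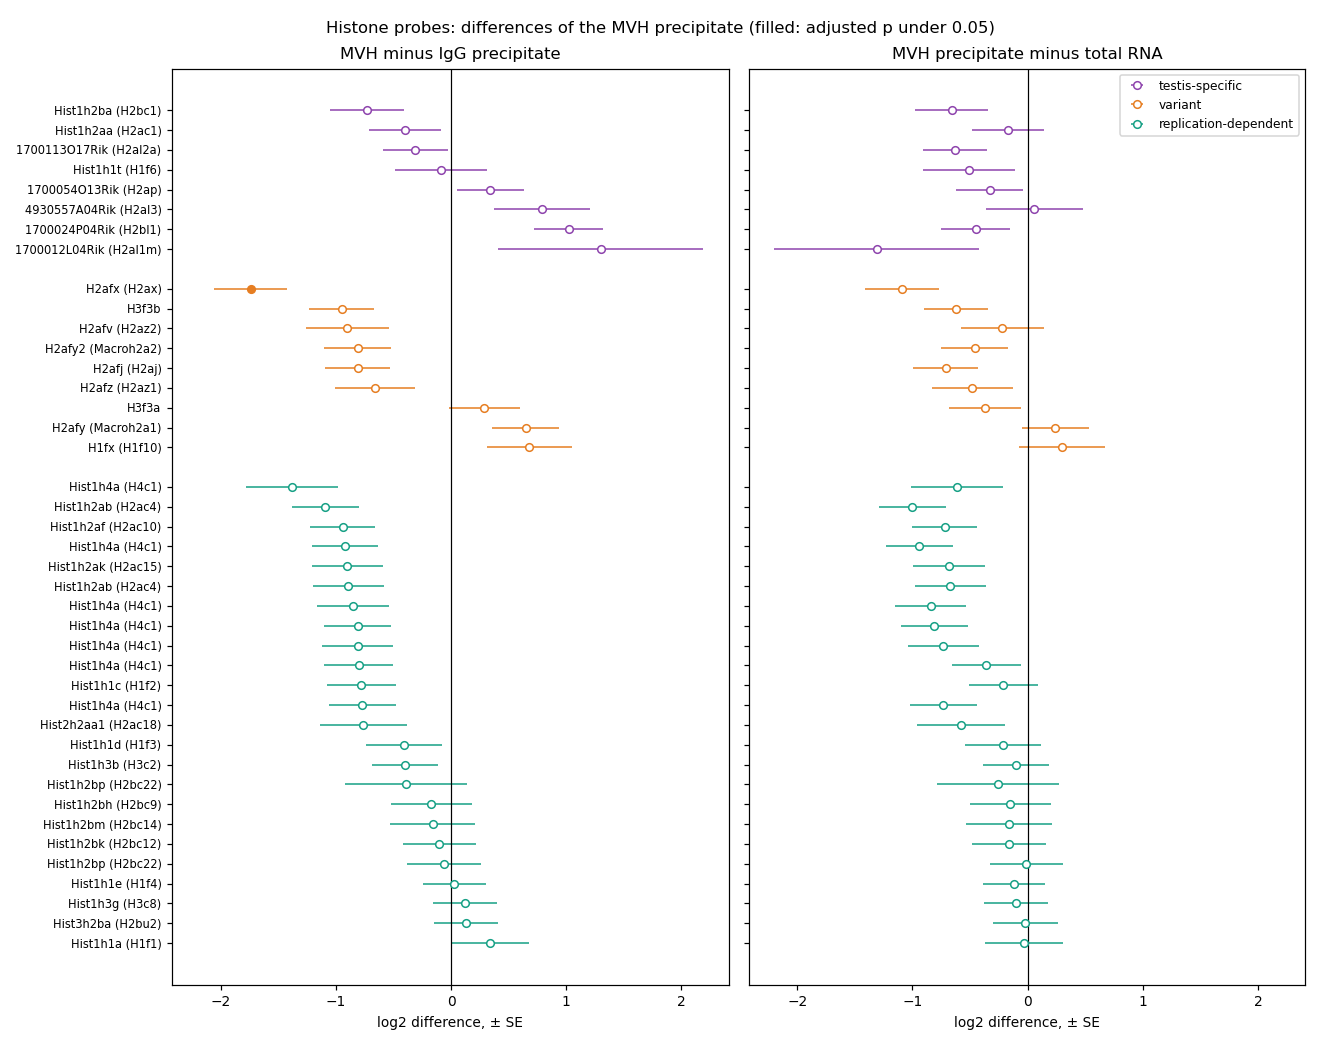
Log2 difference, with its SE, of each histone probe tested between the MVH and IgG precipitates. MVH minus IgG precipitate is on the left and MVH precipitate minus total RNA on the right, on the same axis. Filled points have a limma adjusted p under 0.05. Probes tested only against total RNA are not drawn. Only H2afx on the left is filled, at -1.74, and on the right all but H2al3, H2afy and H1fx lie below 0.

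The called probe was that of H2afx (current symbol H2ax), which encodes the H2A variant that is phosphorylated around DNA breaks and over the unpaired sex chromosomes of spermatocytes. Its intensities were 378 and 278 with MVH, against 1379 and 847 in the IgG precipitates and 719 and 667 in total RNA. The MVH arrays lay below every other array, and the IgG arrays lay above those of total RNA. It was 3.33-fold lower with MVH than with IgG (-1.74 ± 0.32 on the log2 scale; SE, 2 arrays a group, adjusted p = 0.0227 by limma). Against total RNA the difference was -1.09 ± 0.32 (limma adjusted p = 0.347), and between IgG precipitate and total RNA 0.64 ± 0.32 (limma adjusted p = 0.341). The call against IgG was lost when MVH array 1 (adjusted p = 0.0735), MVH array 2 (0.133), IgG array 1 (0.057) or either total RNA array (0.0608) was left out, and with the deposited values before scaling (0.0813). In these fits the difference lay between -1.96 and -1.38.

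The replication-dependent genes supply the histones that pack newly copied DNA. Their 27 probes carry 17 gene symbols, most of them in the large cluster on chromosome 13, and 24 were tested between the precipitates. Of these, 20 were lower with MVH and 4 higher, with a median of -0.77 and a range of -1.38 to 0.34. None passed the threshold in limma, although a Hist1h2ab (H2ac4) probe did in 6 other settings of the fit, and 12 were lower and 0 higher at an unadjusted p under 0.05. In 14 of the 24 both MVH arrays lay below both IgG arrays, against 23.8% of all probes, and in 0 both lay above, against 29.9%. The 7 probes that share the symbol Hist1h4a supplied 7 of these 14 and 7 of the 12. The counts and the median are thus over probes, not over independent genes. With the deposited values, which in effect differ from the scaled ones only for IgG array 2, the 14 became 6, against 11.6% of all probes. Without IgG array 1 the median was -0.45, and without IgG array 2 it was -0.89.

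The promoters of these genes are shown because they share sequence that the choice by name did not use. Whether promoter sequence relates to the differences between the groups was not tested. Sequences are from RefSeq on mouse build GRCm38.p6, from 250 bases before to 50 after the start, matched by symbol for 35 of the 36 genes. Each is written 5′ to 3′ on the strand of its gene, and capitals mark CCAAT or TATAAA on either strand, counted separately. Hist1h2ab (H2ac4) carried the largest difference among the replication-dependent H2A probes, and Hist1h4a (H4c1) is the symbol that most probes carry:
Hist1h2ab (H2ac4), chr13:23750838-23751137, plus strand: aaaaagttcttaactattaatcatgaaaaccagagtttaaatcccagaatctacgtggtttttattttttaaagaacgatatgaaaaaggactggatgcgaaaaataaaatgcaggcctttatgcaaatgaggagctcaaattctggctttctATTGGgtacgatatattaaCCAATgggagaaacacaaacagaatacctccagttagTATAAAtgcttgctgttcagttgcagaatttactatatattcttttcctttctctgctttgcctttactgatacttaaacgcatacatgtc
Hist1h4a (H4c1), chr13:23761200-23761499, minus strand: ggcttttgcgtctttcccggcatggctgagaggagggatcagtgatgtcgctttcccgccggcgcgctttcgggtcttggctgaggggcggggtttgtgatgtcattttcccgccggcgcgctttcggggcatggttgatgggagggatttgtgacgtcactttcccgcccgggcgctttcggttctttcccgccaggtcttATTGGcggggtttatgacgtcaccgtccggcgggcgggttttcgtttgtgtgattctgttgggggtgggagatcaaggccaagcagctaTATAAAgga
CCAAT was present in 17 of the 17 replication-dependent promoters, against 37.9% of 27025 promoters of all genes. TATAAA was present in 12 of the 17, against 14.2% of all. Among variants 7 of 9 held CCAAT and 1 held TATAAA, and among testis-specific genes 6 of 9 and 3 of 9 did. A match describes letters anywhere in this window, on either strand, and names no bound factor. In Hist1h4a, TATAAA lies after the start, near the 3′ end of the window.

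Within the replication-dependent class all H2A and H4 probes lay apart between the precipitates, as did 1 H1 and 1 H3 probe, and the H2B probes overlapped. This contrast between the histones was not tested. All 5 H2A probes had both MVH arrays below both IgG arrays and below both total RNA arrays. Whether each probe detects a single H2A gene was not tested, so the 5 may not be independent measurements. Hist1h2ab, through probe M400007165, had 6357 and 6282 with MVH, against 13739 and 13152 in the IgG precipitates and 10330 and 15362 in total RNA. The difference was -1.09 ± 0.29 against IgG (limma adjusted p = 0.0547) and -1.0 ± 0.29 against total RNA (limma adjusted p = 0.337). A second probe of the gene, M400007457, gave 221 and 339 with MVH, against 588 and 441 with IgG and, in total RNA, 452 and 419. Both probes thus put the MVH arrays lowest.

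Hist1h2af (H2ac10) had 13832 and 15035 with MVH, against 26845 and 28466 with IgG and, in total RNA, 20409 and 27492, a difference of -0.94 ± 0.28 against IgG (limma adjusted p = 0.0733). Hist1h2ak (H2ac15) had 22689 and 21907 with MVH, against 37941 and 45418 with IgG and, in total RNA, 28258 and 45120, a difference of -0.90 ± 0.31 against IgG (limma adjusted p = 0.11). Hist2h2aa1 (H2ac18), of the smaller cluster on chromosome 3, had 8002 and 7414 with MVH, against 16853 and 10153 with IgG and, in total RNA, 8307 and 15919. Here total RNA array 1 came close to the MVH arrays. The scale ended between 67580 and 83665 as deposited, and whether the brightest H2A probes neared saturation was not tested.

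The 7 probes named Hist1h4a, for histone H4, all had both MVH arrays below both IgG arrays, with differences from -1.38 to -0.77 and limma adjusted p of 0.0666 at the lowest. They share a symbol, so they are not independent measurements, and they may also detect the near-identical coding sequences of other H4 genes. Probe M400008877 had 522 and 643 with MVH, against 1181 and 920 with IgG and, in total RNA, 860 and 1246. Probe M400008862 had 224 and 285 with MVH, against 541 and 425 with IgG and, in total RNA, 428 and 550, a difference of -0.92 ± 0.29 against IgG (limma adjusted p = 0.0893) and -0.94 ± 0.29 against total RNA (limma adjusted p = 0.377). In both probes the IgG and total RNA arrays overlapped. The largest difference, -1.38, belonged to probe M200014750, which was dim, at 3.2 and 2.0 with MVH, against 8.6 and 5.05 with IgG and, in total RNA, 5.0 and 3.0, so that its size is uncertain (-1.03 with an offset before log2).

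For H2B the MVH arrays lay among the others. None of the 6 probes tested had separated MVH and IgG arrays, and the differences ran from -0.39 to 0.13. Hist1h2bh (H2bc9) had 1017 and 1455 with MVH, against 1621 and 1156 with IgG and, in total RNA, 1062 and 1711. Hist1h2bm (H2bc14) had 775 and 1351 with MVH, against 1364 and 951 with IgG and, in total RNA, 942 and 1395, and Hist1h2bk (H2bc12) differed by -0.10 ± 0.32 between the precipitates. Of the 3 probes of Hist1h2bp, 1 was dim, at 2.2 and 5.4 with MVH, and blank on IgG array 2 and total RNA array 2, and the others differed by -0.39 and -0.06. Hist3h2ba (H2bu2), outside the large cluster, had 56.1 and 48.7 with MVH, against 51.7 and 44.4 with IgG, and differed by 0.13 ± 0.28.

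**Figure D2:**
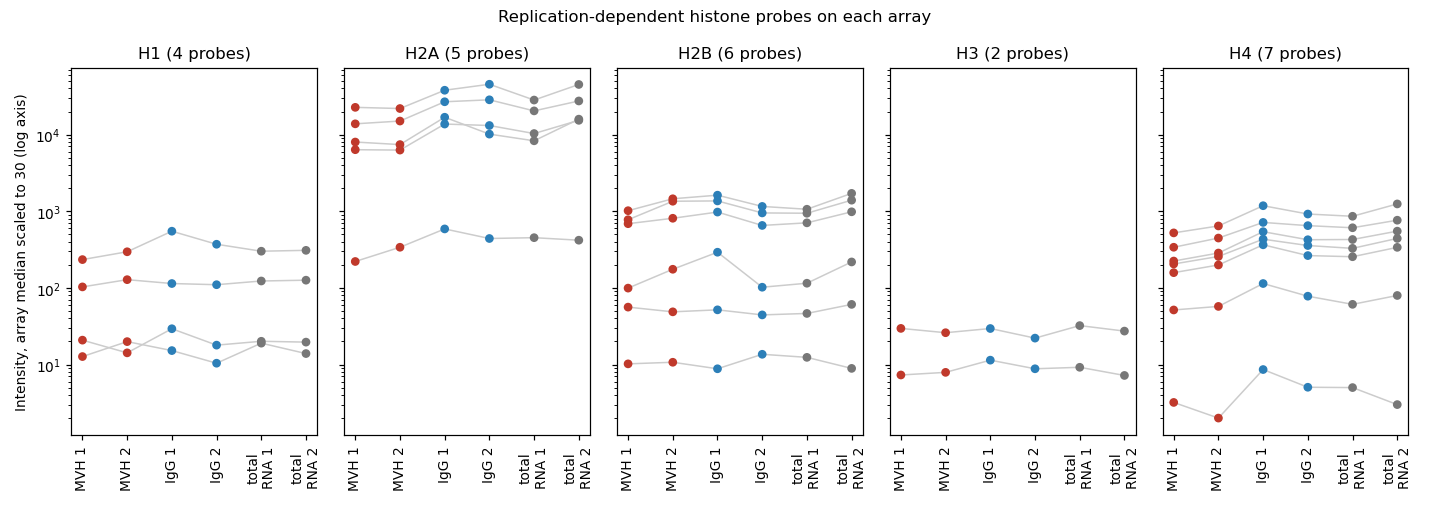
Intensity of each replication-dependent histone probe listed on all 6 arrays, on a log axis, with 1 panel per histone; lines join the arrays of a probe, with MVH in red, IgG in blue and total RNA in grey. The 5 H2A probes and the 7 H4 probes sit lower on the MVH arrays than on the IgG arrays, whereas the 6 H2B probes do not separate.

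Replication-dependent linker and H3 probes were mixed. Hist1h1c (H1f2), a major linker histone of somatic cells, had 234 and 296 with MVH, against 549 and 371 with IgG and, in total RNA, 301 and 309, a difference of -0.78 ± 0.30 against IgG (limma adjusted p = 0.146). Hist1h1a (H1f1) differed by 0.34 ± 0.34, Hist1h1d (H1f3) by -0.41 ± 0.33 and a bright probe of Hist1h1e (H1f4) by 0.03 ± 0.27, each with overlapping arrays. Another Hist1h1e probe was dim, at 4.1 and 1.7 with MVH, and blank on IgG array 2. Hist1h1b (H1f5) was blank on both IgG arrays and listed at 1.7 and 4.5 with MVH and at 2.8 and 5.4 in total RNA. Its MVH mean was 1.71-fold above the mean of the lowest listed values of the IgG arrays, close to the bottom of the scale. This is a lower bound only if blanks lie below the listed values, which no source states. The value on MVH array 1 lay below the lowest listed value of IgG array 2 (2.02). The H3 genes Hist1h3b (H3c2) and Hist1h3g (H3c8) differed by -0.40 ± 0.29 and 0.12 ± 0.28. Hist1h3b had 7.3 and 7.9 with MVH, against 11.4 and 8.8 with IgG and, in total RNA, 9.2 and 7.2. Its MVH arrays thus lay below the IgG arrays, while those of Hist1h3g overlapped.

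Against total RNA, 26 replication-dependent probes were tested, and all 26 differences were negative, with a median of -0.35, against -0.02 over all 21793 probes. Limma called none (7 lower at an unadjusted p under 0.05), and it called 0.00918% of all probes lower and 0.00459% higher in this comparison. In 12 of the 26 both MVH arrays lay below both total RNA arrays, against 21.6% of all probes. The median was -0.56 without total RNA array 1 and -0.23 without total RNA array 2. The MVH arrays enter both this comparison and that with IgG, so the comparisons are not independent. Lower values against total RNA were not particular to this class. The median was -0.47 over 10 variant probes, 8 of them negative, and -0.48 over 8 testis-specific probes, 7 of them negative. Both MVH arrays lay below both total RNA arrays in 6 of these variant and 4 of these testis-specific probes, and limma called none. Between IgG precipitate and total RNA the 24 replication-dependent probes had a median of 0.07 (-0.20 before scaling), against -0.10 over all probes (-0.37 before scaling). Both IgG arrays lay above both total RNA arrays in 2 of them, against 20% of all probes, and below in 1, against 29.6%. Limma called 0 of these (0 at an unadjusted p under 0.05), with 0.00934% of all probes called higher and 0% lower.

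Variants showed both directions between the precipitates. Of 10 probes 9 were tested, 6 with both MVH arrays below both IgG arrays, against 23.8% of all probes, and 3 with both above, against 29.9%. Besides H2afx, the lower ones included H3f3b, a gene of the replacement H3, at 2162 and 2650 with MVH, against 4380 and 4865 with IgG and, in total RNA, 3271 and 4162. Its difference was -0.95 ± 0.28 against IgG (limma adjusted p = 0.0733) and -0.62 ± 0.28 against total RNA (limma adjusted p = 0.567). H3f3a, which codes for the same protein, had 1288 and 1469 with MVH, against 1284 and 981 with IgG and, in total RNA, 1451 and 2171. It differed by 0.29 ± 0.31 against IgG (limma adjusted p = 0.605), so the H3f3b probe lay below and the H3f3a probe just above the IgG arrays. The difference between these probes was not tested.

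For both genes of H2A.Z, a variant of gene starts and regulatory DNA, the MVH arrays lay below the IgG arrays, and neither probe was called. H2afv (H2az2) had 407 and 457 with MVH, against 1149 and 564 with IgG and, in total RNA, 485 and 522, a difference of -0.90 ± 0.36 against IgG (limma adjusted p = 0.155). It was -0.39 without IgG array 1 and -1.41 without IgG array 2 (limma adjusted p = 0.496 and 0.0434). H2afz (H2az1) had 2931 and 5710 with MVH, against 5777 and 7247 with IgG and, in total RNA, 5583 and 5836, with MVH array 2 close to the controls. Its difference of -0.66 ± 0.35 from IgG was -0.18 without MVH array 1 and -1.14 without MVH array 2 (limma adjusted p = 0.852 and 0.165). H2afj (H2aj) had 793 and 887 with MVH, against 1309 and 1653 with IgG and, in total RNA, 1273 and 1477, and lay below all 4. Its differences were -0.81 ± 0.28 against IgG and -0.71 ± 0.28 against total RNA, with limma adjusted p of 0.106 and 0.484.

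The macroH2A genes, whose products carry a large extra domain and mark silent chromatin, parted. H2afy (Macroh2a1) had 201 and 154 with MVH, against 127 and 99.7 with IgG and, in total RNA, 154 and 143, a difference of 0.65 ± 0.29 against IgG (limma adjusted p = 0.199). H2afy2 (Macroh2a2) had 194 and 189 with MVH, against 276 and 409 with IgG and, in total RNA, 252 and 273, a difference of -0.81 ± 0.29 against IgG (limma adjusted p = 0.121). The difference between the 2 genes was not tested. H1fx (H1f10), a linker variant, had 62.8 and 37.0 with MVH, against 36.6 and 24.7 with IgG and, in total RNA, 48.2 and 31.8, at 0.68 ± 0.37 against IgG (limma adjusted p = 0.292), which was 0.30 without MVH array 1 and 1.06 without MVH array 2. H1foo (H1f8), the linker histone of oocytes, lay at the bottom of the scale, at 1.6 and 1.8 with MVH, with IgG at 3.1 and blank, and with total RNA at 2.2 and 2.8.

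The testis-specific histones had a median of 0.13 between the precipitates over 8 of 9 probes tested, with 4 positive and 4 negative. In 3 both MVH arrays lay above both IgG arrays, against 29.9% of all probes, and in 3 below, against 23.8%. Limma called none, with 1 higher and 0 lower at an unadjusted p under 0.05. That probe was 1700024P04Rik (H2bl1), an H2B variant of spermatids, which had 5590 and 6329 with MVH, against 2856 and 3016 with IgG and, in total RNA, 6450 and 10225. It differed by 1.02 ± 0.30 from IgG (limma adjusted p = 0.075) and by -0.45 ± 0.30 from total RNA (limma adjusted p = 0.779). The IgG arrays were the low ones, and the IgG precipitate differed from total RNA by -1.47 ± 0.30 (limma adjusted p = 0.0686). In 5 of the 8 testis-specific probes tested both IgG arrays lay below both total RNA arrays, against 29.6% of all probes, and limma called 0 (3 lower at an unadjusted p under 0.05).

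1700012L04Rik (H2al1m), of the H2A.L variants of condensing spermatids, had 442 and 294 with MVH, against 496 and 43.4 with IgG and, in total RNA, 772 and 1027. The IgG arrays were far apart, so that its difference of 1.30 ± 0.89 between the precipitates (limma adjusted p = 0.413) came to 3.05 without IgG array 1 (limma adjusted p = 0.0195) and to -0.46 without IgG array 2 (limma adjusted p = 0.514). Against total RNA the MVH arrays were lower, at -1.31 ± 0.89 (limma adjusted p = 0.787). It belongs to a set of near-identical copies on the X chromosome, which the probe may not tell apart. 1700113O17Rik (H2al2a), an H2A.L variant that pairs with the testis H2B as transition proteins are loaded, had 19167 and 19375 with MVH, against 22591 and 25252 with IgG and, in total RNA, 25562 and 34941. The MVH arrays were lowest, with differences of -0.31 ± 0.28 from IgG and -0.63 ± 0.28 from total RNA (limma adjusted p = 0.544 and 0.562).

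4930557A04Rik (H2al3) and 1700054O13Rik (H2ap), neighbours on the X chromosome, lay above the IgG arrays. H2al3 had 935 and 1966 with MVH, against 931 and 661 with IgG and, in total RNA, 999 and 1705. H2ap had 1453 and 1783 with MVH, against 1425 and 1132 with IgG and, in total RNA, 1773 and 2295. The differences from IgG were 0.79 ± 0.42 and 0.34 ± 0.29 (limma adjusted p = 0.284 and 0.517), and in both genes 1 MVH array was close to IgG array 1. Without MVH array 1 the difference of H2al3 was 1.33, and without MVH array 2 it was 0.25.

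**Figure D3:**
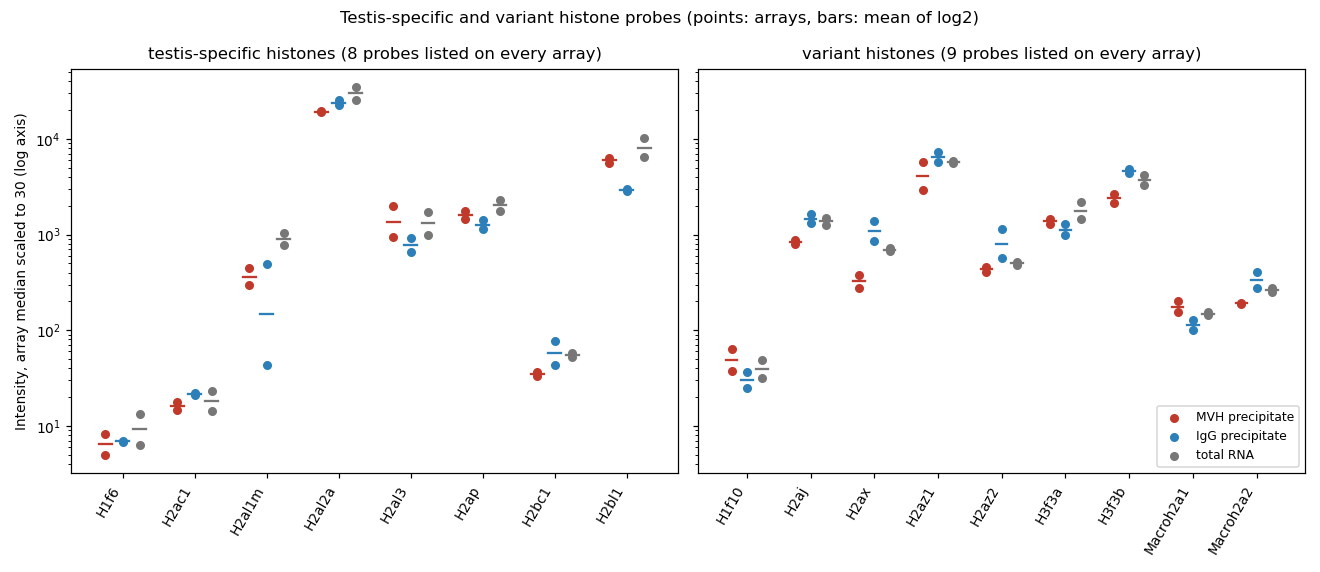
Intensity of the testis-specific probes on the left and the variant probes on the right that were listed on every array, on a log axis; points are arrays and bars the mean of log2, with MVH in red, IgG in blue and total RNA in grey. H2ax shows the MVH arrays at 378 and 278 below all others, H2bl1 shows low IgG arrays at 2856 and 3016, and H2al1m shows IgG arrays far apart at 496 and 43.4.

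The testis H2A and H2B genes Hist1h2aa (H2ac1) and Hist1h2ba (H2bc1), whose products replace their somatic counterparts in spermatocytes, are neighbours on chromosome 13, and the promoter windows of the pair overlap on opposite strands. The window of Hist1h2ba is shown with that of the spermatid variant 1700024P04Rik, as examples of a gene expressed from meiosis and a gene of spermatids:
Hist1h2ba (H2bc1), chr13:23934107-23934406, minus strand: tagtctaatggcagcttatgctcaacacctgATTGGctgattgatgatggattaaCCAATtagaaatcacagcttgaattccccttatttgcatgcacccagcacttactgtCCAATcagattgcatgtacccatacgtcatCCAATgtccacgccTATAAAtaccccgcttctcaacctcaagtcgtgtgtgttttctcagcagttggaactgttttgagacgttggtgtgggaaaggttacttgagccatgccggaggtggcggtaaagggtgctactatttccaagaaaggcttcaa
1700024P04Rik (H2bl1), chr13:98984516-98984815, minus strand: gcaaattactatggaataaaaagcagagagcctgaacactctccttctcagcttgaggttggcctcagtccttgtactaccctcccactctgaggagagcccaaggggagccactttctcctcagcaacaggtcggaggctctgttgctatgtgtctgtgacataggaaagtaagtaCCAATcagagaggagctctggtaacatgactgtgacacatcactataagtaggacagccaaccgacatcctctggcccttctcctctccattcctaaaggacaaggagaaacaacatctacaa
The first held CCAAT at 4 places and TATAAA at 1, and the second held CCAAT at 1 place and no TATAAA. Hist1h2ba had 36.5 and 33.1 with MVH, against 43.5 and 76.4 with IgG and, in total RNA, 52.4 and 57.8, at -0.73 ± 0.32 from IgG (limma adjusted p = 0.201) and -0.66 ± 0.32 from total RNA (limma adjusted p = 0.616), and the MVH arrays lay below all 4 others. The difference from IgG was -1.14 without IgG array 1 and -0.32 without IgG array 2. Hist1h2aa had 14.8 and 17.9 with MVH, against 20.8 and 22.2 with IgG and, in total RNA, 23.2 and 14.4, at -0.40 ± 0.31 from IgG. Hist1h1t (H1f6), the linker histone of spermatocytes, was dim, at 5.0 and 8.3 with MVH, against 6.8 and 6.92 with IgG and, in total RNA, 6.3 and 13.4. 1700014N06Rik (H2bfm) was listed at 2.5 and 2.7 with MVH and was blank on IgG array 2 and total RNA array 1, so it was not tested. Hils1, a spermatid linker histone that the annotation used here lists only under a name the rule does not match, had 20718 and 26698 with MVH, against 16794 and 18953 with IgG and, in total RNA, 28873 and 37796, and differed by 0.40 ± 0.29 from IgG (limma adjusted p = 0.439).

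**Figure D4:**
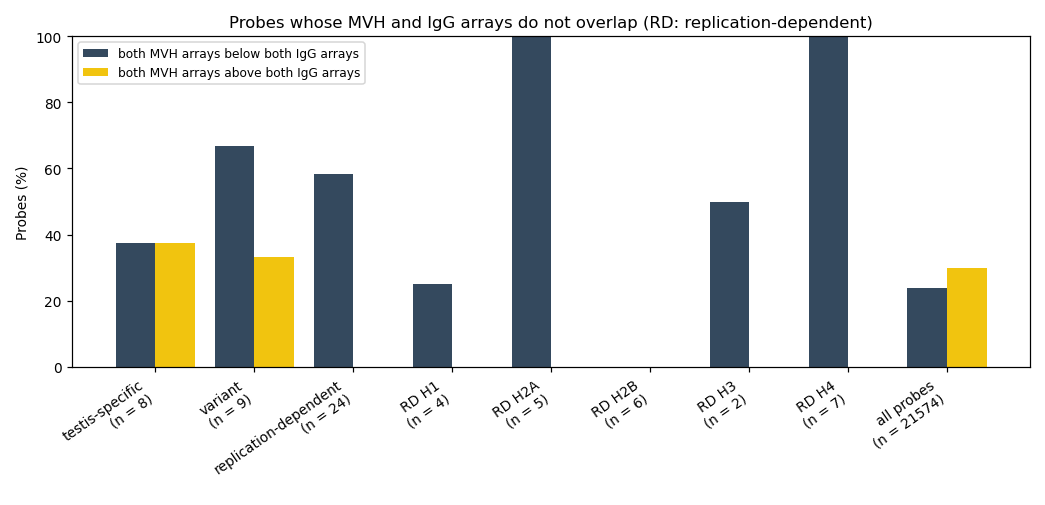
Percent of tested probes whose MVH arrays both lie below (dark) or both above (yellow) both IgG arrays, by histone class, by histone within the replication-dependent (RD) class, and for all 21574 probes. The dark bar stands at 23.8% for all probes and at 100% for the 5 RD H2A and the 7 RD H4 probes, and no RD H2B probe has either.

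Genes that make and handle histone mRNA were read with 1 probe each, the brightest. Of 22 genes for transcription and 3′ end processing on the array, 1 rose and 3 fell with MVH against IgG, against 3.82% and 4.15% of all probes, with a median of -0.08, against 0.07 over all probes. These calls, and those of the lists that follow, were lost without MVH array 2, without either total RNA array, and with only the 4 arrays compared. The one that rose was Zfp473, a zinc finger protein of the histone pre-mRNA processing complex (1.39), and those that fell were the endonuclease partner Cpsf2 (-1.33) and the Sm proteins Snrpd3 (-1.61) and Snrpf (-1.45), which also serve splicing. Of 14 genes for histone mRNA translation and decay, Dcp1a, a decapping factor, rose (1.37) and Lsm3, of the ring that binds mRNA ends, fell (-1.95), with a median of -0.48. In both lists limma called 0 genes against total RNA, with 1 and 0 higher and 1 and 2 lower at an unadjusted p under 0.05.

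Histone chaperone and S phase genes were called in both directions, in numbers to be read against the same 3.82% and 4.15% of all probes. Here rose and fell mean higher and lower with MVH than with IgG. Of 24 chaperone and deposition genes, Chaf1a, a subunit of the factor that loads histones on new DNA, rose by 2.23 ± 0.26 (limma adjusted p = 0.0148), at 235 and 245 with MVH, against 54.9 and 47.5 with IgG and, in total RNA, 88.0 and 82.2. Nasp, a carrier of H1 and H3 (-1.38), and Nap1l4, a carrier of H2A and H2B (-1.32), fell, and the median was -0.32. Of 34 S phase replication genes, Rfc1 (1.96) and Rfc2 (1.43), of the clamp loader, rose, and Mcm4 (-1.52) and Cdc45 (-1.64) of the helicase and the single-strand binding protein gene Rpa2 (-2.05) fell, with a median of -0.26. Of 15 genes of histone replacement in spermatids, Phf7, a reader of histone marks, rose by 1.71 (16950 and 20642 with MVH, against 4428 and 7377 with IgG and, in total RNA, 17804 and 17673) and none fell, with a median of 0.03. Against total RNA limma called 0 genes in these lists, with 1 to 3 higher and 0 to 2 lower per list at an unadjusted p under 0.05.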

How the data were processed

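Testis RNA was measured on 6 single-colour arrays. Per the labels' protocols, amplification gave aminoallyl aRNA, to which Cy5 was coupled. The authors deposited 1 linear intensity per probe and array. How these were read, background-corrected and scaled, and when a cell was left blank, is not stated in any source used. From each log2 intensity the median of the array's listed values was subtracted (values are shown rescaled to a median of 30). The fit of group means used limma 3.58.1 (R 4.3.3; lmFit, eBayes) on the 6 arrays together, with 3 residual and 5.77 prior degrees of freedom. A contrast was tested only for probes listed on all 4 arrays it compares. P-values were adjusted over every probe tested (Benjamini-Hochberg, threshold 0.05). The steps were run on simulated data with no blanks and with shifts larger than any histone difference between the precipitates. That run does not show how smaller differences fare. The median SE of a log2 difference was 0.31.

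Symbols came from the platform annotation (16631 probes with 1 symbol, 6842 with none) and were updated through RefSeq names of GRCm38.p6, which also supplied the promoters. Members and gene lists were chosen with earlier results of these data known. Named are every testis-specific and variant probe, and of the replication-dependent probes those with the 5 largest differences in each direction (4 were positive), any past the threshold and any with a blank, and other members besides, chosen after their values were seen. Of a list, up to 4 genes past the threshold are named, except that all those of the S phase list are. A probe blank on every array of a group was set against that group's lowest listed values. Alternatives were other centring, quantile normalization, an offset of 1.7 before log2, filters on dim or incompletely listed probes, a variance trend, the 4 compared arrays alone, the replicate number as a block, and each array left out. Plots were drawn with matplotlib 3.10.9.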

Additional observations from a re-analysis of the deposited data

How the results depend on the processing

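Between the MVH and IgG precipitates, 1 histone probe was called lower. This count was 0 with no centring and with only the 4 arrays compared, 3 for probes listed on all 6 arrays or with the replicate block, 4 with quantile normalization, 5 without the dimmest 25% of probes or with an offset, 6 with a variance trend, and 0 to 2 with an array left out. H2ax was among the calls in each setting that made calls lower. Those gained were probes of H2ac4 (6 settings), H2ac10, H3f3b, H2ac15, H4c1 and, without IgG array 2, H2az2. The count called higher was 1, through H2bl1, with 75th percentile centring, an offset, a variance trend or without the dimmest 25% of probes, and 0 to 1 with an array left out. Between IgG precipitate and total RNA the count called lower was 1, again H2bl1, in those 4 settings and in the fit of probes listed on all 6 arrays. It was 0 to 1 with an array left out. Against total RNA the MVH counts were 0 in every setting run. Calls over all probes moved with them. Between the precipitates 824 were called higher and 895 lower, which became 702 and 121 with no centring, 1492 and 1624 without the dimmest 25%, 1295 and 1378 after an offset, 1507 and 1636 under a variance trend, 94 and 16 without MVH array 1, and 0 and 0 without MVH array 2, without either total RNA array or with only the 4 arrays compared. Between IgG precipitate and total RNA the 2 and 0 became up to 798 and 455, with a variance trend. Between MVH precipitate and total RNA the 1 and 2 became up to 132 and 48, in the same setting.

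No centring in effect differs from the main fit only at IgG array 2, the array with a deposited median of 20.8. The median of the replication-dependent probes between the precipitates was -0.51 with no centring, where the median of all probes became 0.34, and -0.89 to -0.45 with an array left out. Against total RNA it was -0.56 to -0.23 with an array left out. Between IgG precipitate and total RNA it was -0.20 with no centring (all probes -0.37) and -0.16 to 0.27 with an array left out, so that its sign was not settled. The 14 replication-dependent probes with separated MVH and IgG arrays, and the 19 histone probes below all 4 other arrays, became 6 and 10 with no centring and 15 to 20 and 19 to 25 with an array left out, settings chosen after seeing the data. With an array left out fewer arrays are compared, and the shares of all probes were 31.8% to 38.5% (23.8% with all arrays) and 13.5% to 22.4% (11.5%).

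Same-numbered arrays deviated together only weakly (correlations of 0.101 to 0.157), and the labels tie the numbers to no shared animal, so the arrays were not treated as pairs. The replicate block called H2ac4 (M400007165, adjusted p = 0.0484) and H4c1 (M200014750, 0.0222) beside H2ax (0.019). With 2 arrays a group the smallest exact p is 0.33, so single values rest on the shared spread. Dim probes near blank and bright probes near the top of the scale limit the sizes given.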
